A study of Mus musculus with 12 samples.

Results

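The genes of the fibroblast growth factor (FGF) pathway and of its negative feedback were followed in mouse embryonic stem (ES) cells after RNAi against *Kdm6a*, an X-linked gene whose product removes a repressive methyl mark from histone H3. The set was a list of 39 gene symbols covering FGF ligands, their receptors and binding proteins, the RAS-ERK cascade, phosphatases and other feedback inhibitors of ERK, and transcription factors that respond to ERK. Probe sets named for 37 of the 39 genes were found, and all 37 passed the minimum level for testing, a mean linear value of at least 0.1 of the array mean. The set thus made up 37 of 15329 genes tested, out of 19938 genes measured. *Frs2* and *Mapk3* were not analysed here. The data came from 12 Affymetrix arrays (Mouse Gene 1.0 ST), in 4 experiments with PGK12.1, a female ES cell line derived from blastocysts of a 129 mother and a (129 X PGK)F1 father, and in 2 experiments with WD44, a male line from BL6 blastocysts. Each experiment had 1 array of cells given siRNAs with no target (control) and 1 array of cells given a pool of siRNAs against *Kdm6a*. All cells were undifferentiated, at passage 14-18, kept with LIF and depleted of mouse embryonic fibroblast (MEF) feeders on gelatin before transfection. PGK12.1 experiments 1 and 2 received 100 pmol of siRNA for 48 h and then 400 pmol for 24 h (double RNAi), whereas experiments 3 and 4 of PGK12.1, and those of WD44, received 100 pmol for 48 h (single RNAi). Each sex was represented by 1 cell line, so sex, strain and line cannot be told apart. The study describes its array experiments as independent, without saying of WD44 whether the arrays came from separate cultures, so their spread may be technical.

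FGF ligands bind receptor tyrosine kinases at the cell surface, and the signal passes through the adaptor GRB2 and the exchange factor SOS1 to RAS, the kinases BRAF and MEK (*Map2k1*, *Map2k2*) and finally ERK. ERK activity induces its own inhibitors: dual-specificity phosphatases (*Dusp* genes), Sprouty and Spred proteins, and Sef (*Il17rd*). In mouse ES cells FGF4, which the cells make themselves, is the best known ligand, and ERK signalling moves the cells from self-renewal towards readiness to differentiate. *Etv4*, *Etv5*, *Egr1*, *Fos*, *Myc*, *Dusp6* and *Spry4* are commonly read as reporters of ERK activity.

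The targeted gene was lower in the *Kdm6a* RNAi array of every experiment. *Kdm6a* had changes of -1.27, -1.50, -1.42 and -0.96 on the log2 scale in PGK12.1 (mean -1.29, adjusted p = 0.000292, limma) and of -0.94 and -0.92 in WD44 (mean -0.93, adjusted p = 0.129). Array medians lay between 6.15 and 6.48 in PGK12.1 experiments 1 to 3, at 8.2 and 8.21 in experiment 4 and between 8.03 and 8.08 in WD44, so every change below is a difference of log2 values between the 2 arrays of 1 experiment, with the control subtracted. The ES cell label was checked with markers such as *Pou5f1* and *Nanog*. The summed level of 10 ES cell markers, each as a multiple of the array mean, was 74.1 to 101 in PGK12.1 controls, 73.8 to 98.3 after *Kdm6a* RNAi, 59.9 to 62.2 in WD44 controls and 59.3 to 61.3 after RNAi, with 1 of 10 (*Utf1*, -0.22) called lower in PGK12.1. That of 12 feeder markers was 15.7 to 27.0 and 14.2 to 24.9 in the PGK12.1 groups and 30.1 to 30.3 and 30.7 to 33.1 in the WD44 groups. Most of this sum came from *Vim*, *Fn1* and *Sparc*, with mean levels of 8.75, 6.13 and 4.71. The collagen genes *Col1a1*, *Col1a2* and *Col3a1* had mean levels of 0.43, 0.32 and 0.22, so the sum says little about them. Of the 10 feeder markers tested, 9 were lower in PGK12.1 (median -0.07), of which *Sparc* (-0.46) passed, and 8 were higher in WD44 (median 0.14) with none passing. The difference between the lines had an unadjusted p under 0.05 for 5 of the 10, and the part of feeder RNA in the results below was not tested. In RNA from whole cultures, fewer cells of a type and less RNA per cell cannot be told apart.

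In PGK12.1, 5 of the 37 genes (13.5%) passed an adjusted p of 0.05 after *Kdm6a* RNAi, against 5.81% of all tested genes. The ligands *Fgf15* and *Fgf17* and the inhibitor *Spred1* rose, 3 of 37 where 3.71% of all genes rose, and the phosphatase *Dusp9* and the ligand *Fgf10* fell, 2 of 37 where 2.1% of all genes fell. The other 32 genes, including every receptor, cascade member, ETS factor and immediate early gene, did not pass. At an unadjusted p under 0.05 the count was 10 of 37 (27.0%) beside 22.6% of all genes, the further 5 being *Fgf5*, *Fgfr4*, *Sos1*, *Braf* and *Spry4*, all with positive means. The median change of the 37 genes was 0.038 on the log2 scale and that of all tested genes 0.008. The plot of changes by experiment shows that *Fgf15* and *Fgf17* stood apart from the rest of the set.

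**Figure D1:**
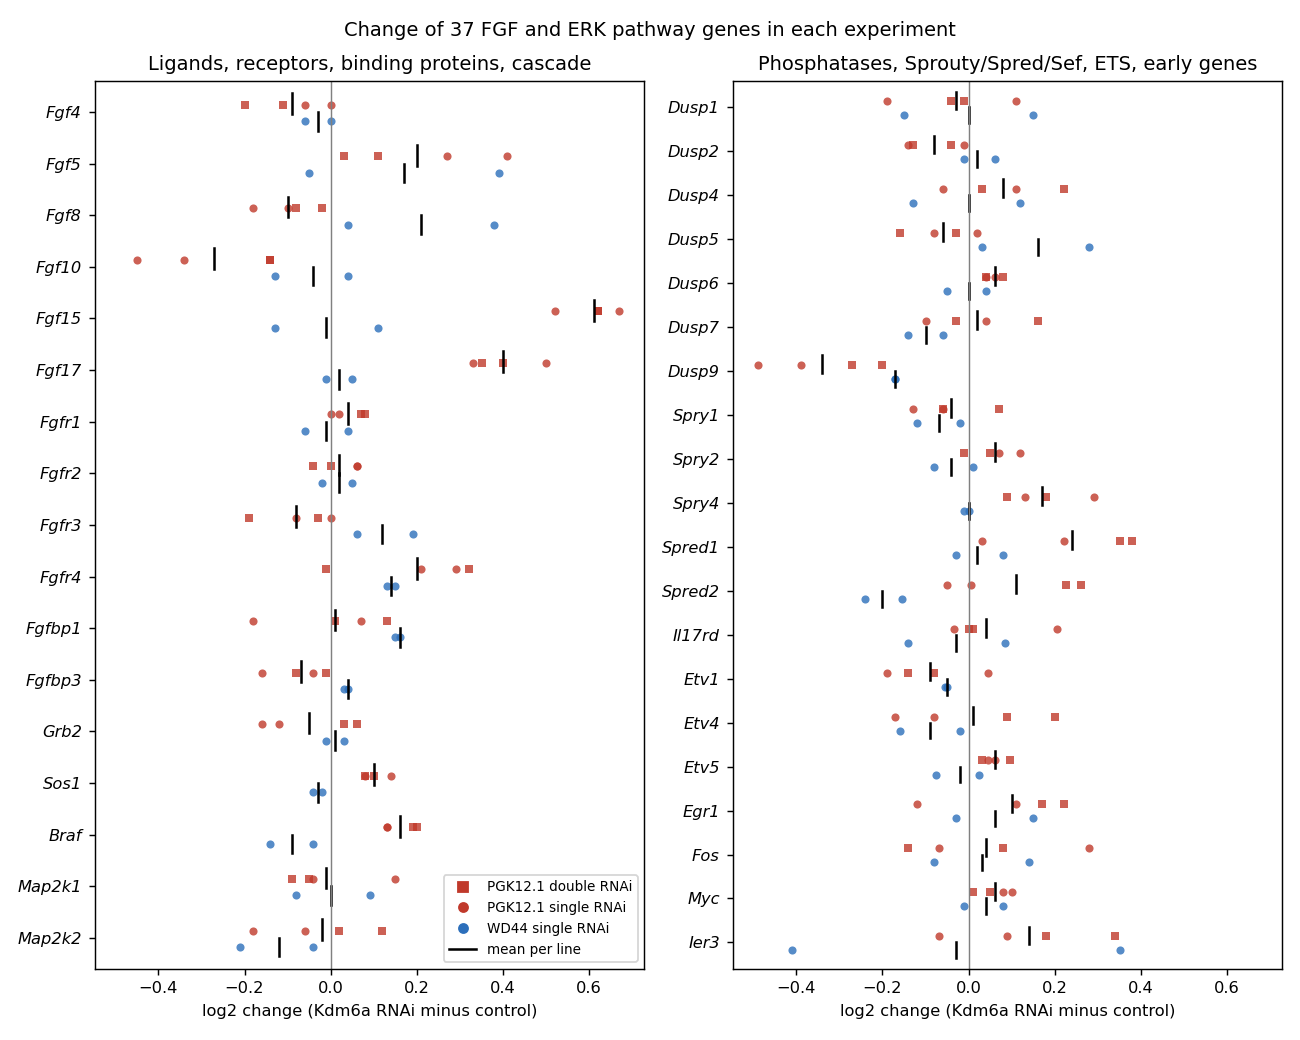
Log2 change of each of the 37 genes in each experiment (x axis, log2 of the *Kdm6a* RNAi array minus log2 of its control), with PGK12.1 in red (squares, double RNAi; circles, single RNAi), WD44 in blue, and black bars for the mean of each line. The red points of *Fgf15* lie between 0.52 and 0.67 and those of *Fgf17* between 0.33 and 0.50, while most other genes have points on both sides of 0.

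Among the ligands, *Fgf15* (chromosome 7), the mouse counterpart of human FGF19 and known as a hormone of bile acid control and a factor of the embryonic brain, had the largest change. Its log2 values in PGK12.1 experiments 1 to 4 were 8.45, 8.43, 9.36 and 10.96 on the control arrays and 9.07, 9.05, 10.03 and 11.48 on the *Kdm6a* RNAi arrays. The changes were 0.62, 0.62, 0.67 and 0.52, a mean of 0.61 ± 0.0629 (SD, n = 4) or 1.52-fold, with an adjusted p of 0.000528 in the limma fit. Every RNAi array was above its own control, by amounts that hardly differed between experiments, and *Fgf15* ranked 12 among all 15329 genes by the size of its rise. In WD44 the control arrays gave 9.09 and 9.30 and the RNAi arrays 9.20 and 9.17, so that the changes of 0.11 and -0.13 had opposite signs.

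*Fgf15* lies among other FGF genes, in the order *Fgf3*, *Fgf4*, *Fgf15* and *Ccnd1* in RefSeq. *Fgf4*, the ligand that ES cells are known to produce, was at 3.66 times the array mean and had changes of -0.20, -0.11, 0.00 and -0.06 in PGK12.1 (mean -0.09, adjusted p = 0.275, limma). *Fgf3* (-0.12, adjusted p = 0.157) and the cyclin gene *Ccnd1* (0.10, adjusted p = 0.218) did not pass either. The rise of *Fgf15* was therefore not accompanied by a called change of these 3 neighbours. The unadjusted p was 0.026 for *Fgf3*, which was lower, and 0.0486 for *Ccnd1*, which was higher (limma). Of all genes, 22.6% had an unadjusted p under 0.05.

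*Fgf17* (chromosome 14), a ligand of the FGF8 subfamily, gave 8.87, 8.88, 9.29 and 9.77 on PGK12.1 control arrays and 9.27, 9.23, 9.79 and 10.10 after *Kdm6a* RNAi. Its changes of 0.40, 0.35, 0.50 and 0.33 averaged 0.40 ± 0.0759 (SD, n = 4), or 1.31-fold (adjusted p = 0.00189, limma). The 4 RNAi arrays were all above their controls. In WD44 the values were 9.02 and 9.0 in controls and 9.07 and 8.99 after RNAi, changes of 0.05 and -0.01. *Fgf8*, the ligand after which the subfamily is named, had negative values in PGK12.1, with changes of -0.08, -0.02, -0.18 and -0.10 that did not pass (mean -0.10, adjusted p = 0.376).

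*Fgf10* (chromosome 13), a ligand best known from limb and lung development, had changes of -0.14, -0.14, -0.34 and -0.45 in PGK12.1, a mean of -0.27 ± 0.154 (SD, n = 4; adjusted p = 0.0344, limma). The control arrays read 5.88, 5.60, 6.19 and 8.14 and the RNAi arrays 5.74, 5.46, 5.85 and 7.69. All 4 RNAi arrays were below their controls, but the mean level of 0.142 of the array mean was close to the minimum for testing, and the gene lost its call in 12 of 16 alternative settings. Its adjusted p was 0.058, 0.108 and 0.104 without PGK12.1 experiment 2, 3 or 4 and 0.0609 without either WD44 experiment. In WD44 the controls read 7.29 and 7.19 and the RNAi arrays 7.33 and 7.06, with changes of 0.04 and -0.13. *Fgf5*, a marker of the primed epiblast, had changes of 0.11, 0.03, 0.27 and 0.41 in PGK12.1, positive in 4 of 4 experiments without passing (adjusted p = 0.162), and of 0.39 and -0.05 in WD44.

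No receptor or FGF-binding protein passed in PGK12.1 in the fit reported here. *Fgfr1*, the main FGF receptor of ES cells, was at 2.27 times the array mean and had changes of 0.00 to 0.08. *Fgfr2* and *Fgfr3* had mean changes of 0.02 and -0.08. *Fgfr4* had changes of -0.01, 0.32, 0.29 and 0.21, with an adjusted p of 0.0695, and passed with quantile normalization (0.0494) and without experiment 1 (0.0238). In WD44 it had changes of 0.15 and 0.13 that did not pass. *Fgfbp1* and *Fgfbp3*, secreted carriers that release FGFs from the matrix, had means of 0.01 and -0.07.

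In the cascade, *Braf* (1.74 times the array mean) had small changes that were alike in the 4 PGK12.1 experiments, 0.20, 0.19, 0.13 and 0.13, and just missed the threshold (mean 0.16, adjusted p = 0.0544, limma). With the minimum raised to 0.25 of the array mean it passed (adjusted p = 0.0237), as it did with the trend and robust options of eBayes (adjusted p = 0.01). *Sos1*, the exchange factor that loads RAS, was at 1.12 times the array mean and had changes of 0.10, 0.08, 0.14 and 0.08 (adjusted p = 0.177). In WD44 both genes had negative changes, -0.14 and -0.04 for *Braf* and -0.02 and -0.04 for *Sos1*. The adaptor *Grb2* and the MEK genes *Map2k1* (2.44 times the array mean) and *Map2k2* (1.41 times) averaged -0.05, -0.01 and -0.02 in PGK12.1.

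Among the 7 phosphatases, *Dusp9*, an X-linked gene for a cytoplasmic phosphatase of ERK, was the exception. On PGK12.1 control arrays it gave 10.51, 10.56, 11.46 and 12.26, and after *Kdm6a* RNAi 10.31, 10.29, 10.97 and 11.87. It fell by a mean of 0.34 ± 0.128 (SD, n = 4) on the log2 scale, to 0.791 of the control level (adjusted p = 0.00782, limma). Double RNAi gave changes of -0.20 and -0.27, and single RNAi gave -0.49 and -0.39. In WD44 it read 11.79 and 11.59 in controls and 11.62 and 11.42 after RNAi, a change of -0.17 in both experiments, so all 6 experiments had the same sign. Its mean level was 3.44 times the array mean. Of 492 X-linked genes tested in PGK12.1, 36 rose and 19 fell (11.2%), with a median change of 0.022, against 5.81% and 0.008 for all tested genes.

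The ERK-induced phosphatase *Dusp6*, at 2.46 times the array mean, had changes of 0.08, 0.04, 0.04 and 0.06 in PGK12.1 (adjusted p = 0.469) and of 0.04 and -0.05 in WD44. *Dusp1* (2.54 times the array mean) and *Dusp7* (1.56 times) had mean changes of -0.03 and 0.02 in PGK12.1, and *Dusp2*, *Dusp4* and *Dusp5* means of -0.08, 0.08 and -0.06. None of these 6 passed in either line.

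Of the Sprouty, Spred and Sef genes, *Spred1* (chromosome 2), an inhibitor of the step from RAS to RAF, rose. It read 8.90, 8.93, 8.75 and 10.15 on PGK12.1 control arrays and 9.25, 9.31, 8.78 and 10.37 after *Kdm6a* RNAi. The changes of 0.35, 0.38, 0.03 and 0.22 (mean 0.24 ± 0.159, SD, n = 4; adjusted p = 0.046, limma) were all positive but spread widely, and the call was lost in 12 of 17 alternative settings. Its adjusted p was 0.142, 0.168 and 0.0992 without PGK12.1 experiment 1, 2 or 4. It was 0.0814 without WD44 experiment 1 or 2, settings that repeat the fit of PGK12.1 arrays alone. In WD44 the controls read 11.39 and 11.31 and the RNAi arrays 11.36 and 11.39. *Spred2*, its closest relative, was at 2.19 times the array mean and had changes of 0.23, 0.26, 0.01 and -0.05 (adjusted p = 0.314). *Spry4* (2.92 times the array mean) had changes of 0.18, 0.09, 0.13 and 0.29 and an adjusted p of 0.0587, passing under the same 2 alternatives as *Braf* (0.0262 and 0.00529). Its WD44 changes were -0.01 and 0.00. *Spry1*, *Spry2* (2.24 times the array mean) and *Il17rd* averaged -0.04, 0.06 and 0.04.

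**Figure D2:**
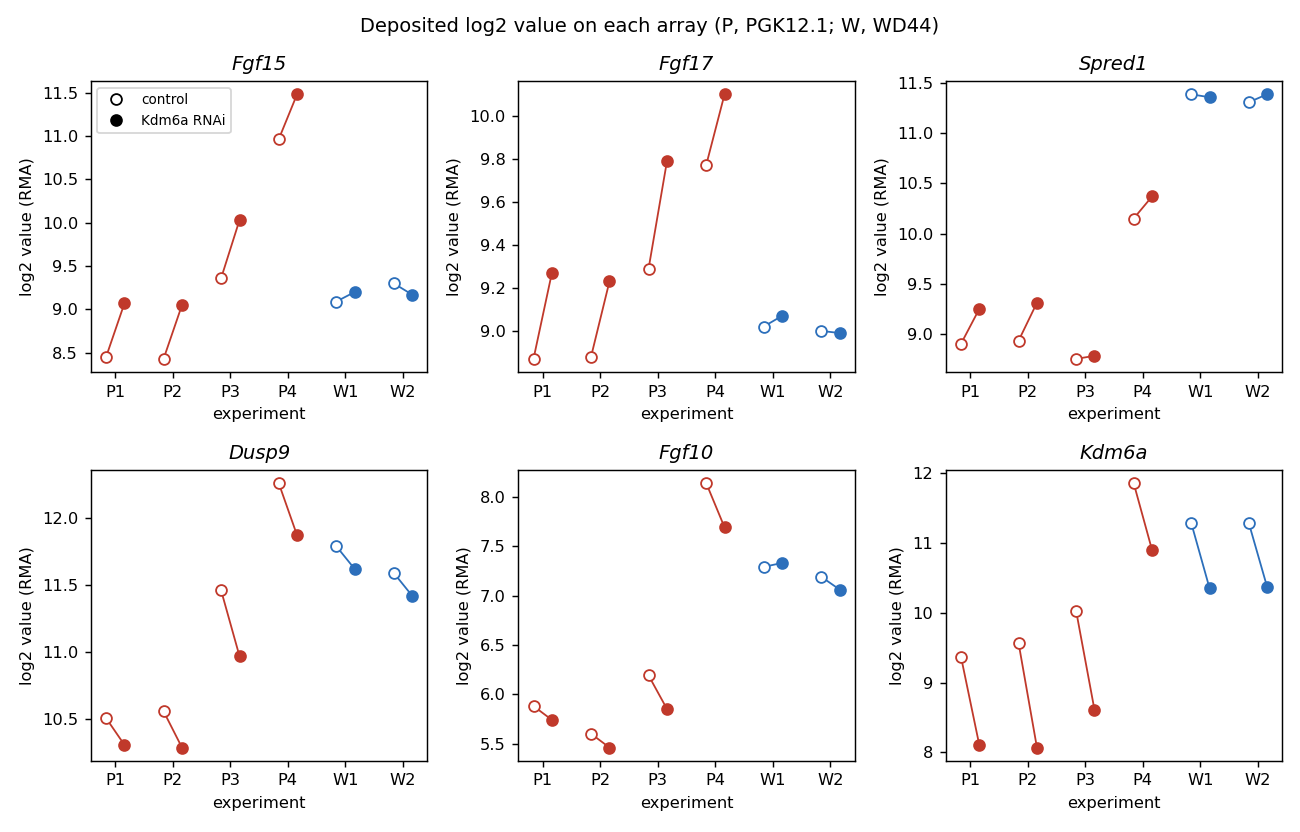
Deposited log2 values (y axis) of the 5 genes that passed in PGK12.1 and of *Kdm6a* in each experiment (x axis; P1 to P4, PGK12.1; W1 and W2, WD44). Open circles are control arrays, filled circles *Kdm6a* RNAi arrays, and a line joins the pair of an experiment; *Fgf15* and *Fgf17* slope upwards in P1 to P4 and slope little in W1 and W2, and *Dusp9* slopes downwards in all 6.

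The promoters of *Spred1* and *Fgf10* are shown as those of the called genes that were matched in the RefSeq table, in which *Fgf15*, *Fgf17* and *Dusp9* had no entry. CpG-rich promoters are known as sites where the mark that KDM6A removes collects. RefSeq promoters (250 bases before to 50 after the start, GRCm38.p6) were used for 27 of the 37 genes, 31 promoters in all. The other genes do not enter the CpG and motif values of the set below. *Spred1* (chr2:117120821-117121120, plus strand) has 40 CpG dinucleotides and *Fgf10* (chr13:118714449-118714748, plus strand) 10, written 5′ to 3′ with each CpG in capitals.
*Spred1*: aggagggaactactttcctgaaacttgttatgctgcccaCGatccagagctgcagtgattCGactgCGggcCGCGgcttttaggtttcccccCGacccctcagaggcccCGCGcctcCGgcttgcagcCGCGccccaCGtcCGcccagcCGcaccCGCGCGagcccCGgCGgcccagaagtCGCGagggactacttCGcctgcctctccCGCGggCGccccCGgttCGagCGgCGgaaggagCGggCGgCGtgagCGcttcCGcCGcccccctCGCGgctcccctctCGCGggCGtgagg
*Fgf10*: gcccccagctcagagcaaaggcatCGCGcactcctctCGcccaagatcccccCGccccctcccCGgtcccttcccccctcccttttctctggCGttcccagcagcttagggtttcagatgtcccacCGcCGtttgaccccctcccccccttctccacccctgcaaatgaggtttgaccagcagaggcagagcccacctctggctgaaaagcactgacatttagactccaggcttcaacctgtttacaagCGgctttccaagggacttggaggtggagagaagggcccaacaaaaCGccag
The median was 26 CpG in the 31 promoters and 7 in all 32851 promoters of the table. The ETS core CCGGAA (either strand) was in 16.1% of the 31 and 14.9% of all promoters, the AP-1 motif TGANTCA in 0% and 7.81%, the CRE TGACGTCA in 6.45% and 1.79%, and the SRF CArG box in 3.23% and 1.63%. The 2 promoters printed hold none of these letters.

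The transcription factors at the end of the pathway had small changes. *Etv5*, at 3.89 times the array mean, had changes of 0.03, 0.10, 0.06 and 0.05 in PGK12.1 (adjusted p = 0.456, limma) and of -0.07 and 0.03 in WD44. These are averages of 2 probe sets, with PGK12.1 means of 0.112 and 0.0025 and changes of 0.22 and -0.10 in PGK12.1 experiment 3. *Etv1* (1.25 times the array mean) and *Etv4* had means of -0.09 and 0.01. Of the immediate early genes, *Myc* (2.48 times the array mean) had changes of 0.05, 0.01, 0.08 and 0.10 (adjusted p = 0.440). *Egr1*, *Fos* and *Ier3* had mean changes of 0.10, 0.04 and 0.14, each with experiments on both sides of 0. *Ier3* was the most variable gene in WD44, at -0.41 and 0.35.

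In WD44, no gene of the set passed the adjusted threshold in the limma fit, as none of the 15329 tested genes did (0%). At an unadjusted p under 0.05 there were 3 of 37 genes (8.11%), against 16.1% of all genes. These were *Fgf8*, at 0.38 and 0.04 (mean 0.21), *Dusp9*, at -0.17 in both experiments, and *Spred2*, at -0.16 and -0.24 (mean -0.20). The 2 probe sets of *Spred2* averaged -0.11 and -0.29 in WD44, while those of *Il17rd* had opposite signs. The next largest positive means were those of *Fgf5* (0.17), *Dusp5* (0.03 and 0.28, mean 0.16) and *Fgfbp1* (0.16 and 0.15, mean 0.16), and the third largest negative mean was that of *Map2k2* (-0.04 and -0.21, mean -0.12). With 2 experiments the standard errors were larger, for *Fgf15* 0.0722 in WD44 and 0.0510 in PGK12.1, and the 95% interval of its change in WD44 ran from -0.17 to 0.15.

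The difference between the lines was tested directly as an interaction of line and treatment. *Kdm6a* itself differed by -0.36 (95% interval -0.66 to -0.06, adjusted p = 0.171, limma), a deeper fall in PGK12.1. The part of knockdown depth in the differences below was not tested. None of the 37 genes passed, and none of all genes did (0%), while 7 of 37 (18.9%) and 21% of all genes had an unadjusted p under 0.05. *Fgf15* came nearest, with a PGK12.1 effect that was 0.62 larger on the log2 scale (95% interval 0.42 to 0.82, adjusted p = 0.0563, limma). *Fgf17* differed by 0.38 (0.20 to 0.55, adjusted p = 0.0868). For both, the smallest change in PGK12.1 was above the largest in WD44. The other differences with an unadjusted p under 0.05 were *Spred2* (0.31), *Braf* (0.25), *Fgf8* (-0.30), *Dusp5* (-0.22) and *Fgfr3* (-0.20). For *Dusp9* the difference was -0.17 (95% interval -0.37 to 0.04, adjusted p = 0.322), and for *Spred1* and *Fgf10* it was 0.22 and -0.22 (adjusted p = 0.263 for each). With single RNAi in both lines these 3 differences were -0.27, 0.10 and -0.35 (adjusted p = 0.220, 0.641 and 0.200). Without WD44 experiment 1 and without experiment 2, in that order, the difference was -0.14 and -0.48 for *Fgf8*, -0.34 and -0.09 for *Dusp5* and -0.14 and -0.31 for *Fgf10*. The signs of all 4 PGK12.1 and both WD44 experiments were opposite for 4 of 37 genes (10.8%), *Sos1*, *Braf*, *Fgf8* and *Fgfbp3*, and for 9.32% of all genes.

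**Figure D3:**
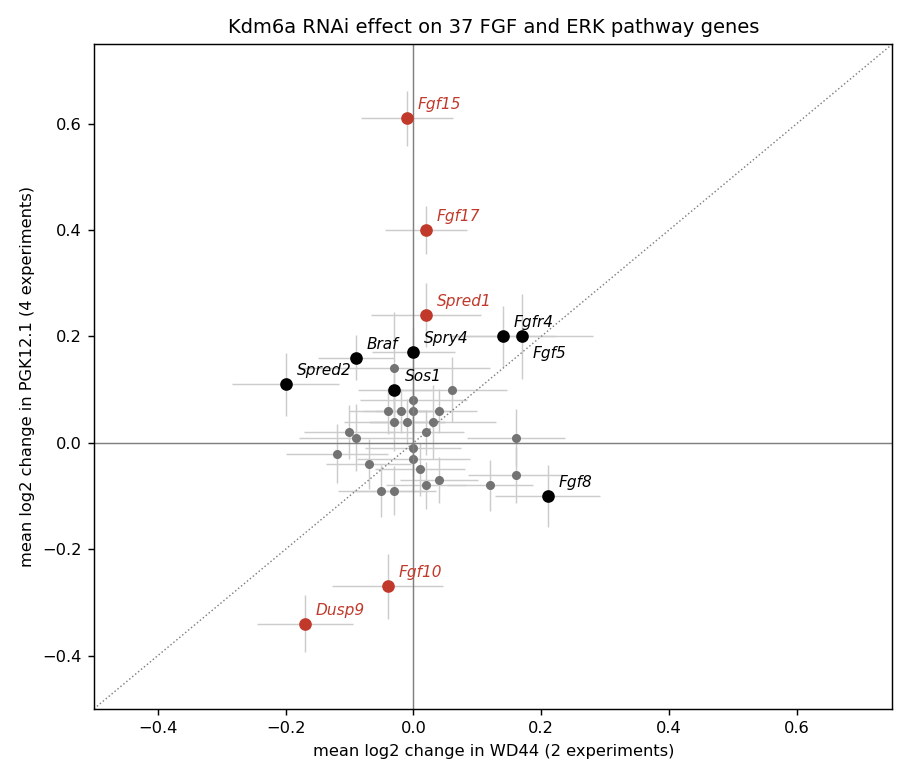
Mean log2 change after *Kdm6a* RNAi in WD44 (x axis, 2 experiments) against PGK12.1 (y axis, 4 experiments) for the 37 genes, with standard errors of the limma fit and a dotted line of equal change. Genes in red passed the adjusted threshold in PGK12.1 and genes in black had an unadjusted p under 0.05 in a line; *Fgf15* (0.61 against -0.01) and *Fgf17* (0.40 against 0.02) lie above 0 on the PGK12.1 axis only, and *Dusp9* (-0.34 against -0.17) is below 0 on both.

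Double and single RNAi in PGK12.1 were compared, though round, dose and time changed together and cannot be told apart. Array medians were 6.15 to 6.21 in experiments 1 and 2, 6.47 and 6.48 in experiment 3 and 8.2 and 8.21 in experiment 4. Single RNAi experiments 3 and 4 thus differed in array scale, the part of which was not tested. No gene of the set passed in the limma fit, and none of all genes (0%). At an unadjusted p under 0.05 there were 6 of 37 (16.2%) against 8.87% of all genes, all with a higher value in double RNAi: *Etv4* (0.27), *Fgf10* (0.26), *Spred2* (0.26), *Spred1* (0.24), *Dusp9* (0.20) and *Grb2* (0.18). The count was 1 of 37 without PGK12.1 experiment 1, where 1189 of 15329 genes were below that p, and 2 of 37 without experiment 4, where 1281 were, so that it rested on these experiments. *Spred1* thus had its larger positive changes with double RNAi (0.35 and 0.38), and *Dusp9* and *Fgf10* their larger negative changes with single RNAi. Each treatment of PGK12.1 was also fitted without the other, but with the single RNAi arrays of WD44, which shared the spread. In these fits *Fgf15* and *Fgf17* passed in both, *Dusp9* with single RNAi (adjusted p = 0.0929 with double RNAi, limma), and *Spred1* and *Fgf10* in neither.

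The control arrays were compared by the percentile of each gene among all tested genes of its array, as a description with no test, since arrays of different experiments may not share a scale and an exact permutation test of 4 against 2 arrays cannot reach 0.05. For 9 of 37 genes (24.3%) all PGK12.1 arrays were above both WD44 arrays, as for 26.4% of all genes. For 14 of 37 (37.8%) all were below, as for 24.7% of all genes, and the other 14 overlapped. Among the 9 were genes that changed after RNAi: *Fgf15* lay at the 72.3, 71.6, 77.3 and 79.4 percentiles on the PGK12.1 arrays and at 46.4 and 50.6 on those of WD44, and *Fgf17* at 78.9, 78.6, 76.3 and 57.7 against 45.1 and 45.0. *Dusp9* (94.4 to 96.5 against 88.6 and 90.7) and *Fgf10* (12.5 to 24.1 against 8.2 and 11.6) were also higher in PGK12.1, with *Fgf8*, *Fgfr3*, *Grb2*, *Map2k1* and *Fos*.

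Of the 13 *Dusp*, Sprouty, Spred and Sef genes, 8 were among the 14 lower in PGK12.1 controls, where 24.7% of all genes were lower. *Dusp9* was higher, and *Dusp2*, *Spry1*, *Spry2* and *Spry4* overlapped. *Dusp6* lay at 80.8 to 81.4 on the PGK12.1 arrays against 95 and 95.3 on the WD44 arrays. *Dusp7* was at 60.1, 59.2, 64.5 and 83.9 against 89.5 and 89.7, and *Dusp4* at 40.4 to 58.6 against 62.7 and 68.5. For *Dusp7* and *Dusp4* the highest PGK12.1 value was that of control 4. *Spred1* was at 64.9 to 79.4 against 85.3 and 86.2, lowest on control 4. The others were *Dusp1*, *Dusp5*, *Spred2*, *Il17rd*, *Fgfr1*, *Fgfr2*, *Fgf5*, *Sos1*, *Map2k2* and *Myc*. Some were apart by a narrow margin only. *Spred2* was at 80.6 to 86.1 against 86.7 and 86.8, and *Il17rd* at 49.2 to 52.5 against 53.5 and 54.0. *Dusp1* was at 80.4 to 91.6 against 92.4 and 94.1. Without PGK12.1 control 4 the count of genes lower in PGK12.1 was 22 of 37, where 36.2% of all genes were lower. The median of that array, 8.21, was near those of the WD44 controls (8.07 and 8.08) and apart from the other PGK12.1 controls. The part of the array scale in the order of the lines was not tested. The summed level of 6 primed epiblast markers was 4.86 to 6.55 in PGK12.1 controls and 10.9 to 11.8 in WD44 controls. After RNAi 1 of the 6 passed, *Cdh2*, at 0.38 in PGK12.1 (adjusted p = 0.0069, limma) and 0.28 in WD44 (adjusted p = 0.195). In PGK12.1, 4 of the 6 were higher and 2 lower. *Dnmt3b* was at -0.26 there (adjusted p = 0.0639, limma) and at 0.00 in WD44. The summed level of the 12 feeder markers, most of it from *Vim*, *Fn1* and *Sparc*, was higher in WD44 controls as well. The part of both marker lists in the order of the lines was not tested.

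**Figure D4:**
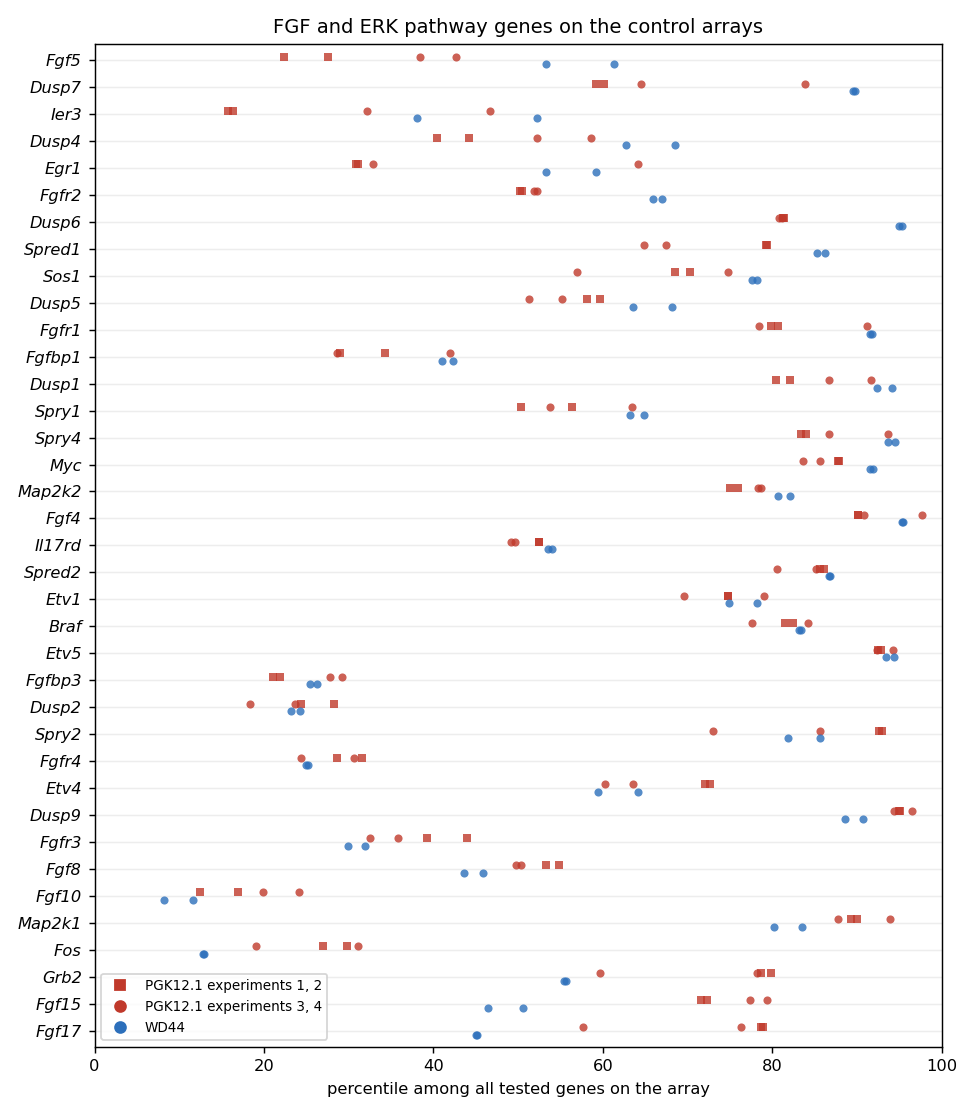
Percentile of each of the 37 genes among all tested genes (x axis) on each control array, with PGK12.1 in red (squares, experiments 1 and 2; circles, 3 and 4) and WD44 in blue, ordered by the difference of the line means. *Fgf15*, *Fgf17*, *Grb2* and *Fos* at the foot lie to the right in PGK12.1 and *Fgf5*, *Dusp7* and *Dusp4* near the top to the left, while *Dusp6* has tight groups at 80.8 to 81.4 and 95 to 95.3.

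Of 106 other genes of the pathway, 94 were tested, and 8 rose and 1 fell in PGK12.1 (9.57%, against 5.81% of all tested genes). Among 11 other ligands, *Fgf18* (0.26, 0.40, 0.34 and 0.68; mean 0.42, adjusted p = 0.00696, limma), which belongs to the FGF8 subfamily like *Fgf17*, and *Fgf1* (mean 0.30, adjusted p = 0.00593) rose. Of 17 genes on the side of receptors and heparan sulphate, which FGFs need to bind their receptors, *Ext1* (0.27), an enzyme that builds the chains, and *Sulf1* (0.22), which trims their sulphates, rose. Of 22 adaptors and cascade genes, the RAS relative *Mras* (0.35), the RAS inhibitor *Rasa3* (0.28) and the ERK-activated kinase *Rps6ka3* (0.18) rose, and *Shoc2* (-0.25), the partner of MRAS, fell. Of 15 other phosphatase and feedback genes, *Pea15a* (0.26), which holds ERK in the cytoplasm, rose. None of 29 other ERK-responsive transcription genes passed in the limma fit, with 6 (20.7%) at an unadjusted p under 0.05, of which 5 were lower, beside 22.6% of all genes. In WD44 none of the 94 passed, with 14 (14.9%) at an unadjusted p under 0.05 beside 16.1% of all genes. *Fgf1* had 0.30 and 0.24 there, close to its PGK12.1 changes, whereas *Fgf18* had -0.07 and -0.11.

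**Figure D5:**
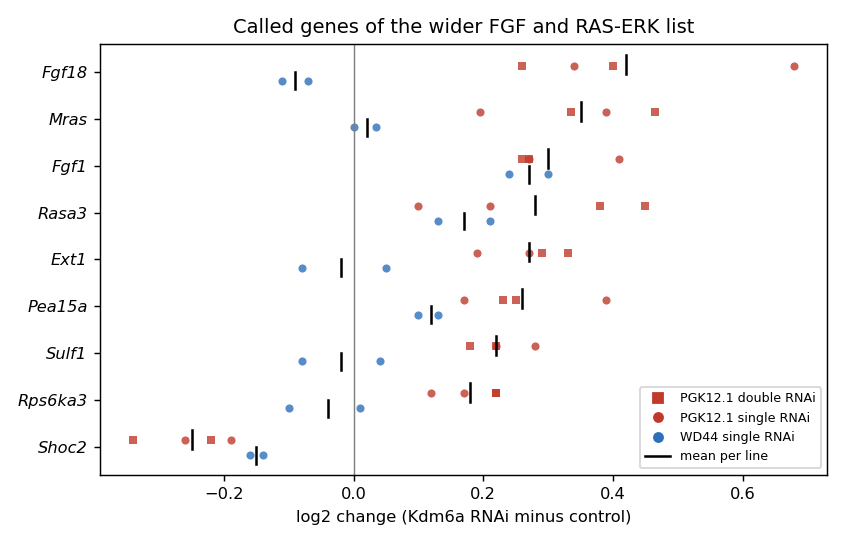
Log2 change in each experiment (x axis, *Kdm6a* RNAi minus control) of the 9 genes of the wider FGF and RAS-ERK list that passed in PGK12.1, with PGK12.1 in red, WD44 in blue and black bars for the mean of each line. *Fgf18* has red points from 0.26 to 0.68 and blue points at -0.07 and -0.11, while *Fgf1* is positive in all 6 experiments and *Shoc2* negative in all 6.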

How the data were processed

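RNA of 12 samples was measured on as many Mouse Gene 1.0 ST arrays. For each probe set the authors deposited a log2 value, for which the methods name Affymetrix Expression Console and, for the normalization, RMA in a Bioconductor package, and the processing notes of the submitters Expression Console and RMA. The software versions and the arrays that entered each normalization were not given in the sources used here. The values were used without further normalization, and the number of arrays limits the precision.

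Of 35556 probe sets, 21789 had 1 gene symbol in the platform annotation, 1621 had several and 12146 had none listed. Probe sets of a gene were averaged (999 genes). Genes with a mean linear value of at least 0.1 of the array mean were tested (15329), and 4609 lay below. Changes were tested with limma 3.58.1 (R 4.3.3), moderated by eBayes with 5.67 prior and 4 residual degrees of freedom, the experiment as a block, 1 *Kdm6a* effect per line, and Benjamini-Hochberg adjustment over all tested genes at 0.05. The scripts were tested on simulated data. WD44 p-values rest on a spread shared with PGK12.1, and p-values measure only the spread between these samples.

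The pairing of arrays came from the experiment numbers in the labels and the paired tests of the methods. The 2 arrays of an experiment deviated together from their group means, with correlations of 0.828, 0.846, 0.915 and 0.972 for PGK12.1, where the array scales raise them, and of 0.265 for WD44, where both experiments give the same value by construction. No 2 arrays held identical values. The genes and lists were chosen with earlier results of these data known. Of the 37 genes, values in every experiment are given for those that passed in a comparison, had an unadjusted p under 0.05 in a line, or had the 3 largest mean rises or falls in a line. Levels are given for genes above the array mean, and at most 6 called genes are named per other list, most by their mean. Marker lists were for ES cells, feeders, primed epiblast, primitive endoderm and mesoderm. For primitive endoderm 0 of 7 and for mesoderm 0 of 5 tested markers passed in PGK12.1. The promoters used for the set were those of a part of its genes, with *Egr1* and *Spry4* among the genes left out. They were compared with all promoters of the table, from which chromosome 18 was not left out as it was from the set. The CpG and motif values thus hold for that part only. Figures were drawn with matplotlib 3.10.9.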

Additional observations from a re-analysis of the deposited data

Results flagged for a closer look

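In 4 genes every PGK12.1 experiment moved one way and both WD44 experiments the other, and the difference was tested by the interaction of line and treatment in limma. The PGK12.1 minus WD44 log2 difference was -0.30 for *Fgf8* (adjusted p = 0.138), -0.11 for *Fgfbp3* (adjusted p = 0.432), 0.13 for *Sos1* (adjusted p = 0.310) and 0.25 for *Braf* (adjusted p = 0.109). Without WD44 experiment 1 the difference for *Fgf8* was -0.14, and without experiment 2 it was -0.48. None passed the threshold, and 9.32% of all tested genes had such opposite signs.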

How the results depend on the processing

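The 5 genes called in PGK12.1 became 0 with no replicate block and 0 with the methods' paired t-test. That test calls 0 of 15329 genes after Benjamini-Hochberg adjustment, where limma calls 890. The count was 3 with no minimum level and 3 in PGK12.1 arrays alone. With the WD44 arrays kept, it was 2 with double RNAi only and 3 with single RNAi only. It was 6 at a minimum level of 0.25 and 7 with the trend and robust options of eBayes, both with *Braf* and *Spry4* added, and 4 with quantile normalization, with *Fgfr4* added and *Spred1* and *Fgf10* lost. Leaving out an experiment gave 3 to 5, with 3 without PGK12.1 replicate 2 or 4 and without WD44 replicate 1 or 2. The fits without a WD44 replicate repeat that of PGK12.1 arrays alone, since the WD44 experiment left in adds no spread. *Fgf15* and *Fgf17* kept their calls except without the replicate block and in the paired t-test, and *Dusp9* except in these and with double RNAi only. For the difference between the lines, the minimum level of 0.25 gave 2 genes (*Fgf15* and *Fgf17*) and the trend and robust options 4 (*Braf*, *Fgf15*, *Fgf17* and *Spred2*), in place of 0. The count lower in PGK12.1 controls was 14, and 14 to 22 when a control array was left out, the highest without PGK12.1 control replicate 4.

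Over all genes, the PGK12.1 count of 890 became 0 with no replicate block, 1371 with the minimum level of 0.25, 452 with no minimum level, 1647 with the trend and robust options, 182 with double and 102 with single RNAi only, 537 in PGK12.1 arrays alone and 350 to 607 without an experiment. In WD44 it was 0, with 174 by the paired t-test and 12 with the trend and robust options, and for the difference 0, with 270 at the minimum level of 0.25 and 553 with those options. Of 352 values of single genes under an alternative, 309 kept their direction and their side of the threshold, 31 lost and 12 gained the call, and 0 reversed. The 309 include genes and comparisons without a call at the outset, which could not lose one. All 31 losses fell on the 5 genes called in PGK12.1. They were 12 of 16 settings for *Fgf10*, 12 of 17 for *Spred1*, 3 of 17 for *Dusp9* and 2 of 17 each for *Fgf15* and *Fgf17*. In WD44, between the lines and between treatments, none of the 37 genes was called with or without the replicate block. No call could be lost in these comparisons, so they do not show stability.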
